A study of Mus musculus with 12 samples.

Results

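The 40 genes described here encode proteins that license, fire, copy and finish DNA replication, and they were taken by symbol from a list. Primary neural stem cells of the mouse were profiled by RNA-seq in 12 libraries, with all transcripts of a gene summed, and all 40 were among the 16043 of 54356 genes that passed a filter on low counts. The groups were libraries labelled Chd5-/- at 48 h, wild type at 48 h, libraries labelled Chd5-/- at 3 h and wild type at 3 h, with 3 libraries in each. Times count from the replacement of growth factor medium (epidermal growth factor and fibroblast growth factor 2) by neurobasal medium with B-27, the start of differentiation. Both genotypes received the same medium, and the strain, the age of the animals, the deleted part of Chd5 and the number of animals or cultures behind the replicates are not given in the labels, so p-values measure only the spread between these libraries. RNA of Chd5, a chromatin remodeller, was at 5.7, 3.34 and 2.96 CPM (counts scaled to library size) under the label Chd5-/- at 48 h, against 6.59, 7.15 and 5.28 CPM in wild type. At 3 h its level was 5.25, 6.31 and 7.06 CPM under that label, against 3.54, 3.93 and 4.66 CPM in wild type. Neither difference passed (edgeR adjusted p = 0.47 at 48 h and 0.26 at 3 h), so the genotype is given throughout as the label states it.

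A cell copies its genome once per cycle. In G1 phase the origin recognition complex, Cdc6 and Cdt1 load the MCM helicase onto origins, which licenses them. In S phase Cdc45 and the GINS complex switch the helicase on, DNA polymerases with primase copy both strands around a sliding clamp, and a separate set of enzymes supplies the deoxynucleotides. Most of these genes are known targets of E2F transcription factors, which pocket proteins hold in check in cells that have left the cycle, and their RNA is low in non-dividing neural cells. The 40 genes were put in 6 roles: 11 for origin recognition and licensing, 6 for helicase activation, 7 for polymerases and primase, 8 for the clamp, its loader and strand maturation, 5 for nucleotide supply, and 3 for chromatin assembly and histone mRNA.

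Depth ran between 14.11 and 18.71 M estimated reads a library, and 3 libraries stood apart from the others of their group. Wild type replicate 1 at 3 h had its reads on shorter transcripts, with a read-weighted length of 1805 bases against 3049 and 3077 bases in replicates 2 and 3. Relative to the mean of those replicates, the 40 genes stood there at 0.253 to 3.63 times the level, with 27 of 40 above. At 48 h, replicate 2 of each genotype held more RNA of all 40 genes than replicates 1 and 3. Neural stem cell markers were present throughout, with 13 of 14 above 1 CPM in all 12 libraries and Prom1 below 1 CPM in all. The counts and the members named by size are given for the 12 libraries and for the 9 without these 3, and a value from 1 of the fits alone is said to be so. Those 9 were chosen after the data were seen. The 48 h libraries left out are also the ones with most replication RNA, so leaving them out deepens the falls. The p-values over the 9 describe the remaining libraries, which differed little within groups. Their chi-square per gene was 1.785 and 1.924 at 48 h (labelled Chd5-/-, wild type), and 2.407 to 5.549 and 2.232 at 3 h. Counting error alone gives about 1, and pairs with a library left out had 139 to 460. Small standard errors over the 9 thus cannot be read as spread between animals.

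RNA of the replication genes was low at 48 h in 2 of 3 libraries of each genotype. In replicates 1 and 3, all 40 genes lay below every 3 h library of the same genotype. In replicate 2, 34 of 40 did so in the libraries labelled Chd5-/- and 29 of 40 in wild type. All 3 libraries thus lay below the 3 h group for 34 of 40 genes in the libraries labelled Chd5-/- and 29 of 40 in wild type, where 32.4% and 16.8% of all genes did, and 0 of 40 lay above, where 32.2% and 20.9% did. Measured as a percent of the 3 h median of the genotype, the median gene stood at 11.95%, 65.77% and 13.35% in replicates 1, 2 and 3 labelled Chd5-/-, and at 11.58%, 64.41% and 12.54% in those of wild type. Replicates 1 and 3 thus lay close together and replicate 2 far above them in both genotypes. In bulk RNA, fewer dividing cells and less RNA per cell cannot be told apart.

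**Figure D1:**
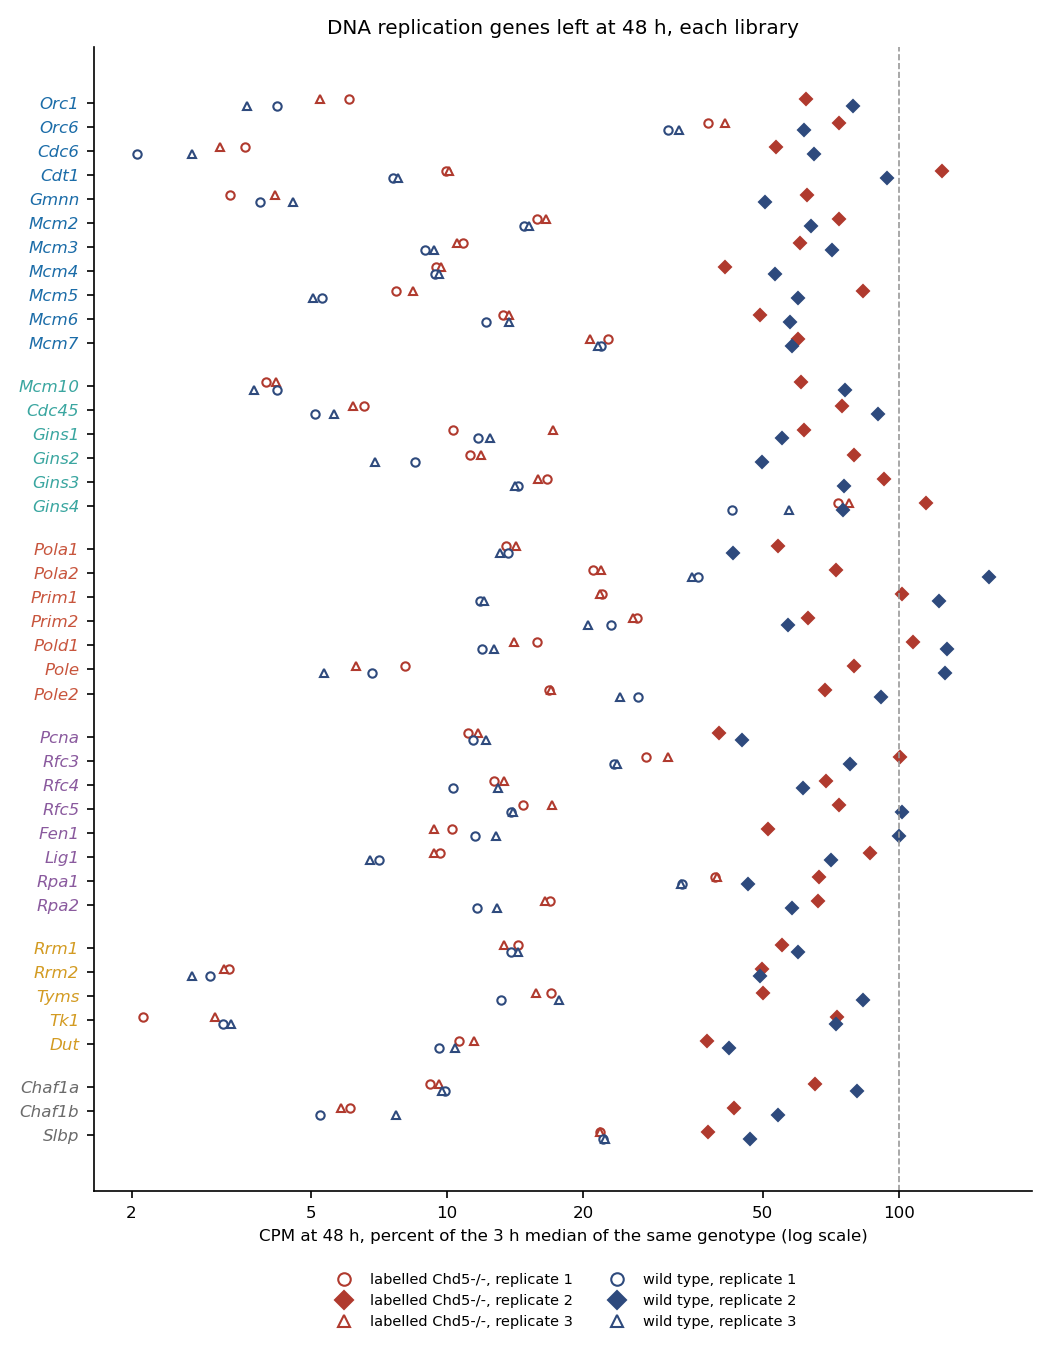
CPM of each of the 40 genes in each 48 h library, as a percent of the 3 h median of its genotype (log axis). Red marks are libraries labelled Chd5-/- and blue marks wild type, gene names are coloured by role, and the dashed line is 100%. The filled diamonds of replicate 2 lie to the right of the open marks of replicates 1 and 3 for all 40 genes.

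With all 12 libraries, 8 of 40 genes fell in the libraries labelled Chd5-/- and 0 rose (edgeR quasi-likelihood test, Benjamini-Hochberg adjusted p under 0.05), where 8.03% of all tested genes were called lower and 14.1% higher. In wild type 11 of 40 fell and 0 rose, where 10.1% of all genes were called lower and 12.7% higher. Mcm7, Pola1, Prim2, Pcna, Rpa1, Dut and Slbp passed in both genotypes. Mcm6 passed in the libraries labelled Chd5-/- as well, and Orc6, Gins1, Gins4 and Rpa2 in wild type. The fold change was below 0 for all 40 genes in both genotypes, with a median log2 fold change of -1.75 in the libraries labelled Chd5-/- and -1.66 in wild type, against 0.04 and 0.09 over all tested genes. At an unadjusted p under 0.05, the members past the threshold numbered 19 in the libraries labelled Chd5-/- and 20 in wild type, where 5722 and 6146 of all 16043 genes did so. Single libraries decided the counts. In the libraries labelled Chd5-/- 36 members were called lower without replicate 2 at 48 h (10.2% of all genes), 1 without any other library of that genotype (3.15% to 3.77%), and 4 to 16 without any one wild type library (6.71% to 20.5%). In wild type 40 were called lower without replicate 2 at 48 h (12.7% of all genes), 1 without replicate 1 or 3 at 48 h (2.91% and 2.98%), and 7 to 17 without any one other library (6.43% to 15.2%). With the replicate number as a block, 5 fell in the libraries labelled Chd5-/- (background 4.38% lower, 7.55% higher) and 1 in wild type (1.57% lower, 3.27% higher).

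Without the 3 libraries, all 40 genes fell in both genotypes, where 40.1% of all genes were called lower and 38.9% higher in the libraries labelled Chd5-/-, and 38.4% lower and 37.6% higher in wild type. The median log2 fold change was -2.98 in the libraries labelled Chd5-/- and -3.09 in wild type, against -0.0032 and 0.018 over all genes. Leaving out only replicate 2 of both genotypes at 48 h gave 39 of 40 lower in the libraries labelled Chd5-/- (background 16.2% lower, 20.9% higher) and 40 of 40 in wild type (16.9% lower, 19.7% higher). The single gene that did not pass there was Gins4 in the libraries labelled Chd5-/-. The genes ranked alike by depth in both genotypes, with a Spearman rho of 0.942 over the 40 fold changes, a description over genes. Over the 9 libraries the fall itself was shallower in the libraries labelled Chd5-/- for 31 of 40. The median difference in fall (labelled Chd5-/- minus wild type) was 0.14 over the 40, against 0.0045 over all genes. With only wild type replicate 2 at 48 h left out it was 1.57 over the 40. With only replicate 2 labelled Chd5-/- at 48 h left out it was -1.18, so its sign turned on single libraries. Depth bore little relation to level, with a rho of 0.052 in the libraries labelled Chd5-/- and 0.101 in wild type between the fold change and the median TPM at 3 h.

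By role, the licensing genes and the nucleotide genes had more negative fold changes than the polymerase genes, and the spread within a role was wider than the gaps between roles. In the 9-library fit the median log2 fold change of the licensing genes was -3.36 in the libraries labelled Chd5-/- and -3.51 in wild type. It was -3.23 and -3.36 for the nucleotide genes, and -2.60 and -2.93 for the polymerase and primase genes. Within licensing alone the fold changes ran between -4.91 (Cdc6) and -1.33 (Orc6) in the libraries labelled Chd5-/-, and between -5.45 (Cdc6) and -1.69 (Orc6) in wild type. Helicase activation had medians of -3.05 in the libraries labelled Chd5-/- and -3.39 in wild type, clamp and maturation genes -2.86 and -3.06, and chromatin assembly -3.45 and -3.38.

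The order of these 3 roles was the same in replicates 1 and 3. In replicates 1 and 3 the median licensing gene kept 9.92% and 10.1% of its 3 h level in the libraries labelled Chd5-/-, and 8.95% and 9.36% in wild type. The median nucleotide gene kept 10.6% and 11.5% in the libraries labelled Chd5-/-, and 9.58% and 10.4% in wild type. The median polymerase or primase gene kept 16.8% and 17% in the libraries labelled Chd5-/-, and 13.7% and 13.1% in wild type, the highest median of the 6 roles in each of these 4 libraries. In replicate 2 the medians of licensing, nucleotide and polymerase genes were 62.4%, 49.9% and 72.8% in the library labelled Chd5-/-, where helicase activation was highest at 77.2%. In wild type replicate 2 they were 61.6%, 59.9% and 122.8%. Nucleotide genes thus lay below licensing genes in replicate 2, unlike in replicates 1 and 3. With all 12 libraries the medians were -1.87 and -1.71 for licensing, -1.97 and -2.33 for nucleotide supply, and -1.39 and -1.22 for polymerase and primase genes. The differences between roles were not tested, since genes are not replicates.

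**Figure D2:**
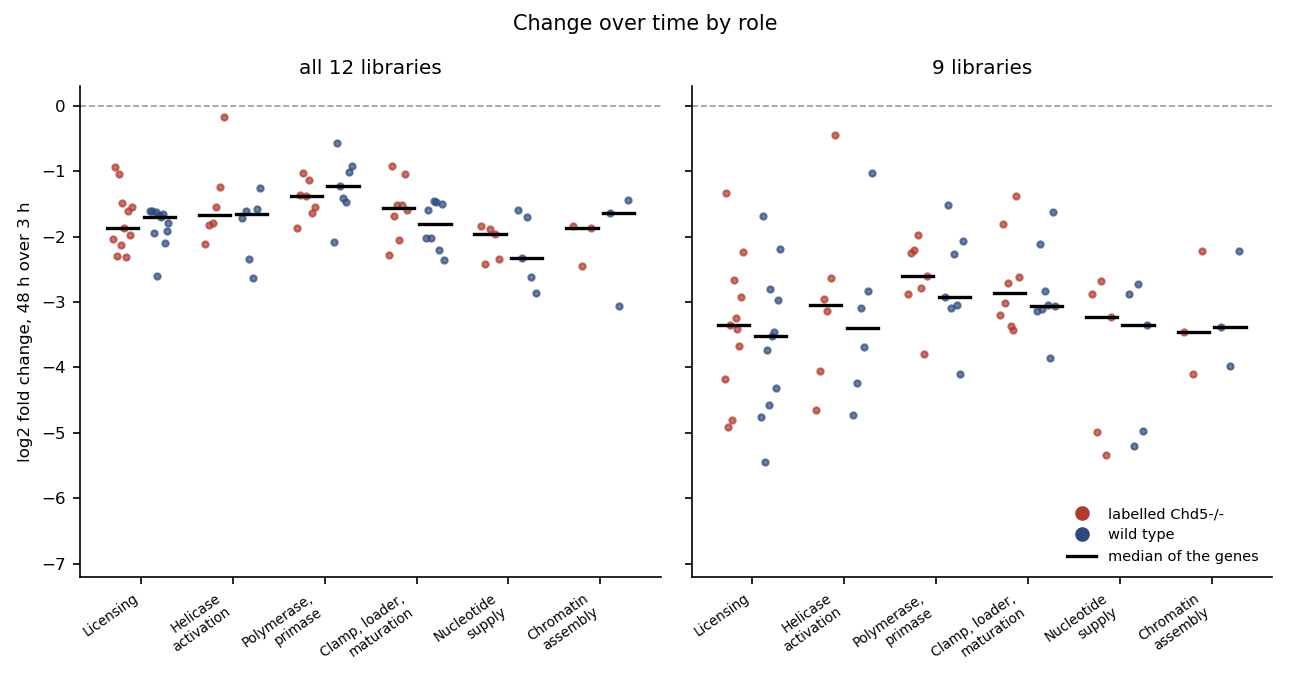
Log2 fold change at 48 h over 3 h for each of the 40 genes by role, with all 12 libraries on the left and the 9 libraries on the right. Red points are libraries labelled Chd5-/-, blue points wild type, and black bars are medians of the genes of a role. The polymerase and primase bars are the ones nearest 0 in both panels, and the points within a role spread more widely than the bars.

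Licensing held the gene with the most negative fold change in wild type over the 9 libraries. Cdc6, the ATPase that brings the MCM helicase to origins, had 2.29, 34.4 and 2.02 CPM in replicates 1, 2 and 3 labelled Chd5-/- at 48 h and 1.59, 50.1 and 2.1 CPM in wild type. Its 3 h values were 61.9, 64.3 and 64.4 CPM in the libraries labelled Chd5-/- and 48.7, 80.4 and 77.4 CPM in wild type. Replicate 2 at 48 h was over 10 times its neighbours, and in wild type it overlapped the 3 h libraries. The log2 fold change was -2.30 ± 1.31 (SE, n = 3 per group, edgeR adjusted p = 0.23) in the libraries labelled Chd5-/- and -1.94 ± 1.29 (adjusted p = 0.29) in wild type. Over the 9 libraries it was -4.91 ± 0.09 and -5.45 ± 0.09.

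Orc1 and Gmnn followed Cdc6. Orc1 encodes the largest subunit of the origin recognition complex, and its values at 48 h were 0.805, 8.28 and 0.694 CPM in the libraries labelled Chd5-/- and 0.794, 15 and 0.682 CPM in wild type. At 3 h it had 12.5, 14.5 and 13.3 CPM in the libraries labelled Chd5-/- and 10.8, 18.9 and 20 CPM in wild type. Gmnn encodes geminin, the inhibitor of Cdt1 that prevents a repeat of licensing, and had 1.30, 24.6 and 1.64 CPM in the libraries labelled Chd5-/- and 2.02, 26.4 and 2.39 CPM in wild type at 48 h. The levels at 3 h were 42.6, 38.7 and 39.4 CPM in the libraries labelled Chd5-/- and 85.5, 49.8 and 52.3 CPM in wild type. Neither gene passed with 12 libraries (adjusted p = 0.24 and 0.21 in the libraries labelled Chd5-/-, 0.33 and 0.13 in wild type, for Orc1 and Gmnn). Over the 9 libraries their log2 fold changes were -4.18 and -4.80 in the libraries labelled Chd5-/-, and -4.76 and -4.57 in wild type. Cdt1, the partner of Cdc6 in loading the helicase, overlapped the 3 h libraries in replicate 2 labelled Chd5-/-, with 92.0 CPM against 71.9 to 75.5 CPM at 3 h.

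Orc6 and Orc3, further subunits of the origin recognition complex, shifted less than Orc1. Orc6 fell in wild type with 12 libraries, to 22.5, 44.8 and 23.7 CPM at 48 h, against 132, 72.8 and 71.9 CPM at 3 h (log2 fold change -1.60 ± 0.38, adjusted p = 0.015). In the libraries labelled Chd5-/- it had 27.2, 53.1 and 29.8 CPM at 48 h, against 74.7, 72.0 and 63.6 CPM at 3 h (-0.93 ± 0.37, adjusted p = 0.095). Orc3, a subunit outside the list of 40, had 41.7, 36.0 and 45.0 CPM in the libraries labelled Chd5-/- at 48 h, against 42.1, 40.1 and 38.1 CPM at 3 h, and those libraries overlapped. In wild type Orc3 had 33.1, 36.6 and 37.4 CPM at 48 h, against 33.5, 39.97 and 43.6 CPM at 3 h. Over the 9 libraries alone, Orc3 fell in wild type (-0.29 ± 0.07, edgeR adjusted p = 0.0029) and did not pass in the libraries labelled Chd5-/- (0.08 ± 0.07, adjusted p = 0.31). The interaction passed in that fit (0.37 ± 0.10, adjusted p = 0.0098). With 12 libraries Orc3 passed in no comparison.

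The MCM helicase is a ring of 6 different subunits, Mcm2 to Mcm7, and their fold changes over time ranged between -2.24 (Mcm7) and -3.67 (Mcm5) in the libraries labelled Chd5-/- over the 9 libraries. In wild type they ranged between -2.20 (Mcm7) and -4.32 (Mcm5). Mcm2, the most abundant of the 40 genes per length in the libraries labelled Chd5-/- at 3 h (median 366 TPM, which scales by transcript length), had 57.6, 270 and 60.4 CPM in the libraries labelled Chd5-/- and 51.8, 224 and 52.9 CPM in wild type at 48 h. Its 3 h levels were 365, 356 and 370 CPM in the libraries labelled Chd5-/- and 340, 355 and 349 CPM in wild type. All 3 libraries of each genotype lay below those of 3 h, and the change did not pass with 12 libraries (adjusted p = 0.14 in the libraries labelled Chd5-/- and 0.095 in wild type). Mcm7 did pass. It had 72.6, 191 and 66.1 CPM in the libraries labelled Chd5-/- at 48 h, against 328, 314 and 319 CPM at 3 h (log2 fold change -1.54 ± 0.49, adjusted p = 0.046). In wild type it had 90.8, 240 and 89.5 CPM at 48 h, against 661, 414 and 386 CPM at 3 h (-1.80 ± 0.50, adjusted p = 0.028).

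Promoters are shown for the 5 licensing genes that hold an exact match to an E2F site and for a pair of nucleotide genes that went down as far without one. Sequences are from RefSeq (mouse build GRCm38.p6), and each runs 5′ to 3′ on the strand of the gene over the 170 bases before the annotated start. Capitals mark matches, on either strand, to TTTCCCGC, TTTGGCGC, TTTCGCGC or TTTGCCGC, and overlapping matches run together. Orc1 lies at chr4:108579284-108579453 (+), Cdc6 at chr11:98907981-98908150 (+), Mcm5 at chr8:75109339-75109508 (+), Mcm6 at chr1:128359706-128359875 (-) and the Mcm7 window, before the more upstream of its annotated starts, at chr5:138171884-138172053 (-). Rrm2 lies at chr12:24708084-24708253 (+) and Tk1 at chr11:117826015-117826184 (-).
Orc1: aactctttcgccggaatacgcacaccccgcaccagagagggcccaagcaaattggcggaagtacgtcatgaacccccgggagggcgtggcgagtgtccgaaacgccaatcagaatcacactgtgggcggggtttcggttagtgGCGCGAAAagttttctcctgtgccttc
Cdc6: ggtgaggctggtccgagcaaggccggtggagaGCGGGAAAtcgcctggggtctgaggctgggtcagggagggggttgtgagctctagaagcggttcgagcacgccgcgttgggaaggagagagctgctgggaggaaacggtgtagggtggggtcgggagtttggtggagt
Mcm5: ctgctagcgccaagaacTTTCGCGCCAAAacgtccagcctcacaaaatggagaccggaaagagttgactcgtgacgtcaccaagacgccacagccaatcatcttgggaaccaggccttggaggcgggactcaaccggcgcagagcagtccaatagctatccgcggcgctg
Mcm6: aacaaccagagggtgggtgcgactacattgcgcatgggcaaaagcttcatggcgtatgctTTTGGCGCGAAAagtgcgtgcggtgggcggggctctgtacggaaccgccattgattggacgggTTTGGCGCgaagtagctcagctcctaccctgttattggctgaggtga
Mcm7: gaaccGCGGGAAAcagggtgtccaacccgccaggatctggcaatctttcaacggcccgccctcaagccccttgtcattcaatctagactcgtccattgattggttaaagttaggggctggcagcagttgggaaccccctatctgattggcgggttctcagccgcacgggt
Rrm2: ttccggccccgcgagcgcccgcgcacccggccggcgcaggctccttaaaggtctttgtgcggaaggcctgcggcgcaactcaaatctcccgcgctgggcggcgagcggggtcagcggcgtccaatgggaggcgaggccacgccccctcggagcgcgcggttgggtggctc
Tk1: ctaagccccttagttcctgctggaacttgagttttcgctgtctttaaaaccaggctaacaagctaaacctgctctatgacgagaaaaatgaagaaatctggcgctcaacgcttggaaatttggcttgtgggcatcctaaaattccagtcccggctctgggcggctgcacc

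In windows of 250 bases before the start, the E2F forms were found in 8 of the 33 genes with a RefSeq promoter (24.2%), against 2.16% of all 27025 genes with one. They were Orc1, Cdc6, Mcm5, Mcm6, Mcm7, Gins3, Pola1 and Rfc3. By role the forms were in 5 of 9 licensing genes and 0 of 5 nucleotide genes. Presence of the form did not go with a deeper fall. In the 9-library fit the median log2 fold change was -2.90 with the form and -3.01 without it in the libraries labelled Chd5-/-, and -2.95 with it and -3.09 without it in wild type. The box CCAAT, on either strand, was in 20 of 33 genes (60.6%), against 37.5% of all genes. TTTGAA or TTTAAA, forms of the cell cycle homology region known from mitosis genes, were in 6 of 33 (18.2%), against 28.1% of all genes and 10 of 17 mitosis genes.

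Helicase activation held both steep and shallow genes. Mcm10, which helps the helicase start, had 3.78, 58.0 and 3.97 CPM in the libraries labelled Chd5-/- and 4.46, 80.9 and 3.98 CPM in wild type at 48 h. At 3 h it had 95.3, 95.9 and 94.0 CPM in the libraries labelled Chd5-/- and 77.6, 110 and 106 CPM in wild type. In replicates 1 and 3 it kept between 3.74% and 4.19% of the 3 h median. Cdc45, the helicase cofactor, kept between 5.09% and 6.56% in those 4 libraries.

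The 4 GINS subunits form 1 complex, and their RNA did not move together. Gins4 had 26.9, 42.2 and 28.5 CPM in the libraries labelled Chd5-/- and 18.8, 32.9 and 25.1 CPM in wild type at 48 h. The levels at 3 h were 37.4, 36.0 and 36.8 CPM in the libraries labelled Chd5-/- and 96.3, 42.8 and 43.8 CPM in wild type. Its fold change was the one nearest 0 among the 40 in both genotypes over the 9 libraries, at -0.44 ± 0.09 in the libraries labelled Chd5-/- and -1.02 ± 0.09 in wild type, and all 4 libraries of replicates 1 and 3 kept over 42% of the 3 h level. Gins1, Gins2 and Gins3 had -2.95, -3.14 and -2.64 in the libraries labelled Chd5-/-, and -3.09, -3.69 and -2.84 in wild type. With 12 libraries Gins4 (-1.25 ± 0.35, adjusted p = 0.029) and Gins1 (-2.34 ± 0.74, adjusted p = 0.044) fell in wild type. Gins1 had 3.05, 14.4 and 3.24 CPM there at 48 h, against 52.5, 26.1 and 26.0 CPM at 3 h. Gins2 had 5.01, 29.4 and 4.09 CPM, against 126, 59.0 and 54.5 CPM, with 14.4% of its reads on coding transcripts. In Gins1, Gins2 and Gins4 wild type replicate 1 at 3 h stood at about 2 times the other 3 h libraries.

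**Figure D3:**
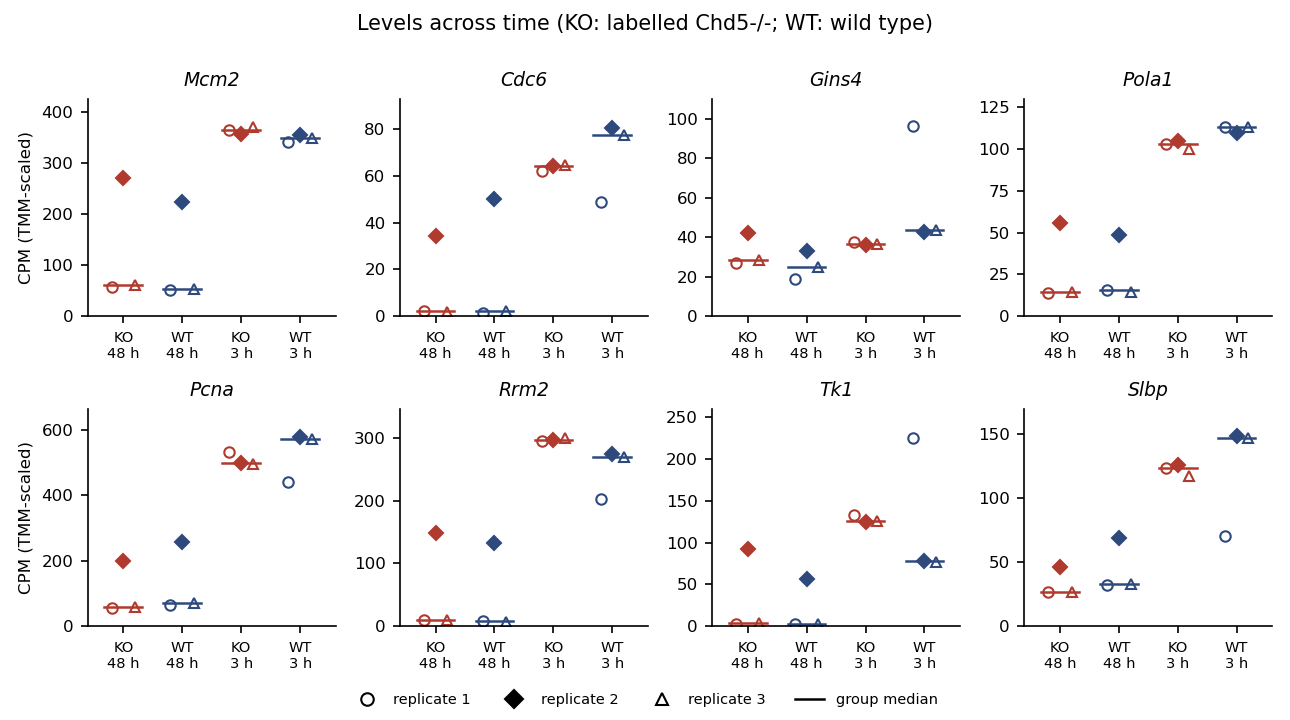
CPM of 8 genes in every library, with groups from left to right labelled Chd5-/- (KO) at 48 h, wild type (WT) at 48 h, KO at 3 h and WT at 3 h; bars are group medians and axes start at 0. The filled diamond of replicate 2 lies above the open marks in both 48 h groups, and the open circle of wild type replicate 1 at 3 h stands apart in Cdc6, Gins4, Tk1 and Slbp.

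Among polymerases, Pola1, the catalytic subunit of DNA polymerase alpha that extends primers, fell in both genotypes. It had 13.9, 55.7 and 14.6 CPM in the libraries labelled Chd5-/- at 48 h, against 103, 105 and 100.1 CPM at 3 h (log2 fold change -1.87 ± 0.58, adjusted p = 0.042). In wild type it had 15.4, 48.6 and 14.8 CPM, against 113, 110 and 113 CPM (-2.09 ± 0.59, adjusted p = 0.029). All 3 libraries at 48 h lay below those of 3 h, replicate 2 included. Prim2, the large primase subunit, fell in both genotypes as well, by log2 fold changes of -1.39 ± 0.45 (adjusted p = 0.049) in the libraries labelled Chd5-/- and -1.42 ± 0.45 (adjusted p = 0.045) in wild type.

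The replicative polymerases of the leading and lagging strands did not pass with 12 libraries. Pold1, the catalytic subunit of polymerase delta, had 23.1, 157 and 20.5 CPM in the libraries labelled Chd5-/- and 20.7, 222 and 22 CPM in wild type at 48 h. Its 3 h levels were 146, 145 and 151 CPM in the libraries labelled Chd5-/- and 399, 174 and 167 CPM in wild type. Replicate 2 at 48 h thus reached or passed the level of 3 h libraries in both genotypes. The same held for Pole, the catalytic subunit of polymerase epsilon, in wild type replicate 2, with 153 CPM against 95.9 to 122 CPM at 3 h. Over the 9 libraries Pole had the steepest fold change of the role (-3.79 in the libraries labelled Chd5-/- and -4.10 in wild type). Prim1 in both genotypes, and Pola2, Pold1, Pole and Pole2 in wild type, were among the genes in which replicate 2 overlapped 3 h libraries.

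The sliding clamp gene Pcna fell in both genotypes. It had 55.4, 199 and 58.4 CPM in the libraries labelled Chd5-/- at 48 h, against 530, 499 and 494 CPM at 3 h (log2 fold change -2.28 ± 0.61, adjusted p = 0.023). In wild type it had 65.3, 257 and 69.8 CPM, against 440, 577 and 572 CPM (-2.02 ± 0.61, adjusted p = 0.037). The 48 h libraries lay below all 3 h libraries in both. Among the clamp loader genes, Rfc4 and Rfc5 had fold changes between -3.11 and -2.71 over the 9 libraries, and Rfc3 -1.81 in the libraries labelled Chd5-/- and -2.11 in wild type. Fen1, a flap nuclease, and Lig1, a ligase, which finish Okazaki fragments, had -3.36 and -3.43 in the libraries labelled Chd5-/-, and -3.05 and -3.86 in wild type.

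Rpa1 and Rpa2, subunits of the complex that coats single-stranded DNA, differed in depth. Rpa1 had 103, 176 and 104 CPM in the libraries labelled Chd5-/- at 48 h, against 267, 264 and 264 CPM at 3 h (log2 fold change -1.05 ± 0.26, adjusted p = 0.016). In wild type it had 84.9, 119 and 84.5 CPM, against 308, 257 and 249.8 CPM (-1.50 ± 0.26, adjusted p = 0.0051, the smallest of the 40 genes in wild type). It kept between 32.9% and 39.6% in replicates 1 and 3, more than any other gene of its role. Rpa2 had 12.7, 63.1 and 14.1 CPM in wild type at 48 h, against 241, 109 and 109 CPM at 3 h (-2.35 ± 0.72, adjusted p = 0.04). In the libraries labelled Chd5-/- it had 13.9, 54.5 and 13.5 CPM, against 85.3, 79.9 and 82.1 CPM (-1.59 ± 0.71, adjusted p = 0.13).

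In nucleotide supply, the subunits of ribonucleotide reductase parted. Rrm2, the small subunit known to be made in S phase, had 9.78, 148 and 9.53 CPM in the libraries labelled Chd5-/- and 8.06, 133 and 7.33 CPM in wild type at 48 h. At 3 h it had 296, 297 and 300.4 CPM in the libraries labelled Chd5-/- and 204, 275 and 269.8 CPM in wild type. Rrm1, the large subunit, had 60.1, 231 and 55.8 CPM in the libraries labelled Chd5-/- and 61.2, 265 and 63.6 CPM in wild type at 48 h, against 418, 418 and 408 CPM and 289, 447 and 442 CPM at 3 h. In the 9-library fit the log2 fold change was -4.98 (labelled Chd5-/-) and -5.19 (wild type) for Rrm2, and -2.88 in both for Rrm1. Rrm2b, the alternative small subunit outside the list of 40, had 14.1, 14.3 and 15.4 CPM in the libraries labelled Chd5-/- and 25.2, 7.08 and 26.7 CPM in wild type at 48 h. Its 3 h values were 20.1, 21.4 and 21.1 CPM in the libraries labelled Chd5-/- and 16, 23.7 and 23.5 CPM in wild type. Over the 9 libraries alone, Rrm2b fell in the libraries labelled Chd5-/- (-0.53 ± 0.07, edgeR adjusted p = 1.5e-05) and did not pass in wild type (0.09 ± 0.07, adjusted p = 0.26). In that fit it was lower under the label Chd5-/- at 48 h (-0.80 ± 0.08, adjusted p = 2e-06), where 21.6% of all genes were called lower. Wild type replicate 2, left out there, lay the other way at 7.08 CPM, below all 3 libraries labelled Chd5-/-. With 12 libraries Rrm2b passed in no comparison.

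Tk1, thymidine kinase of the salvage path, had 2.66, 91.9 and 3.85 CPM in the libraries labelled Chd5-/- and 2.5, 57 and 2.61 CPM in wild type at 48 h. The levels at 3 h were 134, 125 and 126 CPM in the libraries labelled Chd5-/- and 225, 78.6 and 76.7 CPM in wild type. It showed the steepest fold change of the 40 in the libraries labelled Chd5-/- over the 9 libraries (-5.33 ± 0.09; wild type -4.97 ± 0.10), and with 12 libraries it passed in neither genotype. Dut, the enzyme that keeps dUTP out of DNA, fell in both genotypes with 12 libraries. It had 10.1, 35.9 and 10.9 CPM in the libraries labelled Chd5-/- at 48 h, against 102, 95.1 and 90.5 CPM at 3 h (-2.34 ± 0.69, adjusted p = 0.034). In wild type it had 9.46, 41.7 and 10.3 CPM, against 252, 98.8 and 97.3 CPM (-2.87 ± 0.71, adjusted p = 0.018). Tyms, thymidylate synthase, had -2.67 in the libraries labelled Chd5-/- and -2.73 in wild type over the 9 libraries, with 45.8% of its reads on coding transcripts.

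Slbp, which binds histone mRNA, fell in both genotypes. It had 26.9, 46.5 and 26.9 CPM in the libraries labelled Chd5-/- at 48 h, against 123, 126 and 117 CPM at 3 h (log2 fold change -1.87 ± 0.39, adjusted p = 0.0076). In wild type it had 32.5, 68.9 and 32.9 CPM, against 70.7, 148 and 147 CPM (-1.45 ± 0.39, adjusted p = 0.025). Chaf1b, a subunit of the histone chaperone CAF-1, had the steepest fold change of the 40 with 12 libraries in both genotypes, -2.44 ± 1.02 (adjusted p = 0.11) in the libraries labelled Chd5-/- and -3.06 ± 1.05 (adjusted p = 0.056) in wild type. Its level in wild type replicate 1 at 3 h was 333 CPM, against 90.9 and 92.3 CPM in replicates 2 and 3, and without the 3 libraries the values were -4.10 and -3.98.

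Genes of neighbouring processes moved in the same libraries. Of 46 other replication genes, 9 fell and 0 rose in the libraries labelled Chd5-/- with 12 libraries, and 12 fell and 0 rose in wild type, where 8.03% and 10.1% of all genes were called lower, with median log2 fold changes of -1.16 and -1.16. Over the 9 libraries 43 of 46 fell in the libraries labelled Chd5-/- and 45 of 46 in wild type, where 40.1% and 38.4% of all genes were called lower, with medians of -1.91 and -1.87. With 12 libraries, Orc2, Pole4, Nasp, Rpa3, Pole3 and Rfc1 had the smallest edgeR adjusted p in the libraries labelled Chd5-/-. In wild type they were Rpa3, Nasp, Orc2, Pole3, Tipin and Pold2, a ranking by p and not by depth. The median of the 46 genes kept 27.1% and 27.9% of its 3 h level in replicates 1 and 3 labelled Chd5-/-, and 28.3% and 27.9% in wild type. Of 20 mitosis genes, 0 passed in either genotype with 12 libraries (edgeR; 3 at an unadjusted p under 0.05 in the libraries labelled Chd5-/- and 0 in wild type), and all 20 fell over the 9, against the same shares of all genes. The median mitosis gene kept 3.87% and 3.59% in replicates 1 and 3 labelled Chd5-/-, and 4.74% and 4.58% in wild type, lower than the 40 replication genes in each of these libraries. Of 20 E2F and pocket protein regulators, Cdkn1a alone passed over time with 12 libraries. Over the 9, 17 fell and 3 rose in the libraries labelled Chd5-/-, where 40.1% of all genes were called lower and 38.9% higher. In wild type 16 fell and 4 rose, where 38.4% were called lower and 37.6% higher. Ccne2, a cyclin that acts at the start of S phase, had -5.56 in the libraries labelled Chd5-/- and -5.47 in wild type, and E2f1, an activating E2F, had -3.81 and -3.16. Rbl2, a pocket protein known from resting cells, had 1.54 in the libraries labelled Chd5-/- and 0.99 in wild type. The other pocket proteins did not move alike. Under the label Chd5-/-, Rbl1 had 10.7, 51.3 and 10.5 CPM at 48 h, against 82.8, 89.4 and 90.9 CPM at 3 h. Rb1 had 56.3, 34.4 and 64.8 CPM, against 45.9, 48.4 and 50.1 CPM. E2f4 moved less than E2f1, with 51.8, 53.7 and 54.6 CPM against 69.2, 63.6 and 64.2 CPM.

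Markers of other cell types also moved with time and are given beside these falls. The 6 astrocyte markers summed to 252 to 993 CPM in the libraries labelled Chd5-/- and 194 to 730.1 CPM in wild type at 48 h, against 68.6 to 71.3 CPM and 72.5 to 85.4 CPM at 3 h. Gfap, an intermediate filament of astrocytes, had 448, 24.8 and 442 CPM in the libraries labelled Chd5-/- and 269, 1.01 and 280.2 CPM in wild type at 48 h, so replicate 2 was low in Gfap and high in replication genes. The 9 fibroblast and smooth muscle markers summed to 574 to 607 CPM in the libraries labelled Chd5-/- at 3 h, nearly all of it Acta2, and to at most 16.8 CPM in the other groups. Microglia markers summed to at most 2.56 CPM in every library. The 8 neuron markers summed to 719 to 1214 CPM and 542 to 827 CPM at 48 h (labelled Chd5-/-, wild type), against 1194 to 1303 CPM and 235 to 642 CPM at 3 h. The 8 oligodendrocyte lineage markers summed to 1242 to 2092 CPM and 1424 to 2134 CPM at 48 h, against 879 to 967 CPM and 648 to 935 CPM at 3 h. Olig2, a factor of that lineage and of progenitors, had 346, 655 and 334 CPM in the libraries labelled Chd5-/- and 443, 828 and 431 CPM in wild type at 48 h, and Cspg4, of oligodendrocyte precursors, had 84.5, 185.9 and 79.7 CPM and 25.9, 75.2 and 25.4 CPM. Replicate 2 was thus the highest in both, as in the replication genes. The 14 neural stem cell markers summed to 5388 to 7237 CPM and 6080 to 7111 CPM at 48 h, against 9504 to 9819 CPM and 6319 to 8634 CPM at 3 h. The part of cell composition in the falls was not tested.

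Between genotypes, 0 of 40 genes passed at either time with 12 libraries. At 48 h 0 were higher and 0 lower, where 1.53% and 1.21% of all genes were, and at 3 h 0 were higher and 0 lower, where 3.24% and 3.48% were (edgeR quasi-likelihood test). An unadjusted p under 0.05 was reached by 0 members at 48 h and 1 at 3 h, where 1840 and 3784 of all 16043 genes reached it. DESeq2, which gave an adjusted p for 21 of the 40, called 1 gene lower at 3 h and 0 at 48 h. Of all genes it called 7.44% lower and 5.6% higher at 3 h, and 2.72% lower and 3.02% higher at 48 h. The interaction of genotype and time, which asks whether the fall differs, passed for 0 of 40 as well, where 0.137% of all genes were called higher and 0.0935% lower. Without the 48 h replicates 2 of both genotypes, Prim1 was higher at 48 h (1 of 40, background 2.48%) and 0 were lower (2.6%). At 3 h Prim2 was then higher (1 of 40, 7.39%) and Rfc3 lower (1 of 40, 7.32%), with 0 for the interaction (1.24% higher, 1.77% lower). With the replicate block, Rfc3 was lower at 3 h (1 of 40, background 4.15%) and 0 were higher (4.48%). Under the block 0 passed at 48 h (1.67% higher, 1.46% lower) or for the interaction (0.131% higher, 0.0748% lower). Groups of 3 and 3 did not overlap at 3 h for 5 genes that were higher (Mcm2, Mcm3, Mcm6, Prim2 and Rrm2) and 16 that were lower, where 23.9% and 21.1% of all genes did so. At 48 h 0 members did so, where 12.3% and 10.9% of all genes did. Replicate 2 lay above replicates 1 and 3 for all 40 in both genotypes at 48 h. The 3 and 3 libraries could thus hardly separate there, and this 0 says little about the genotypes. The median log2 difference over the 40 was -0.15 at 48 h and -0.23 at 3 h.

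**Figure D4:**
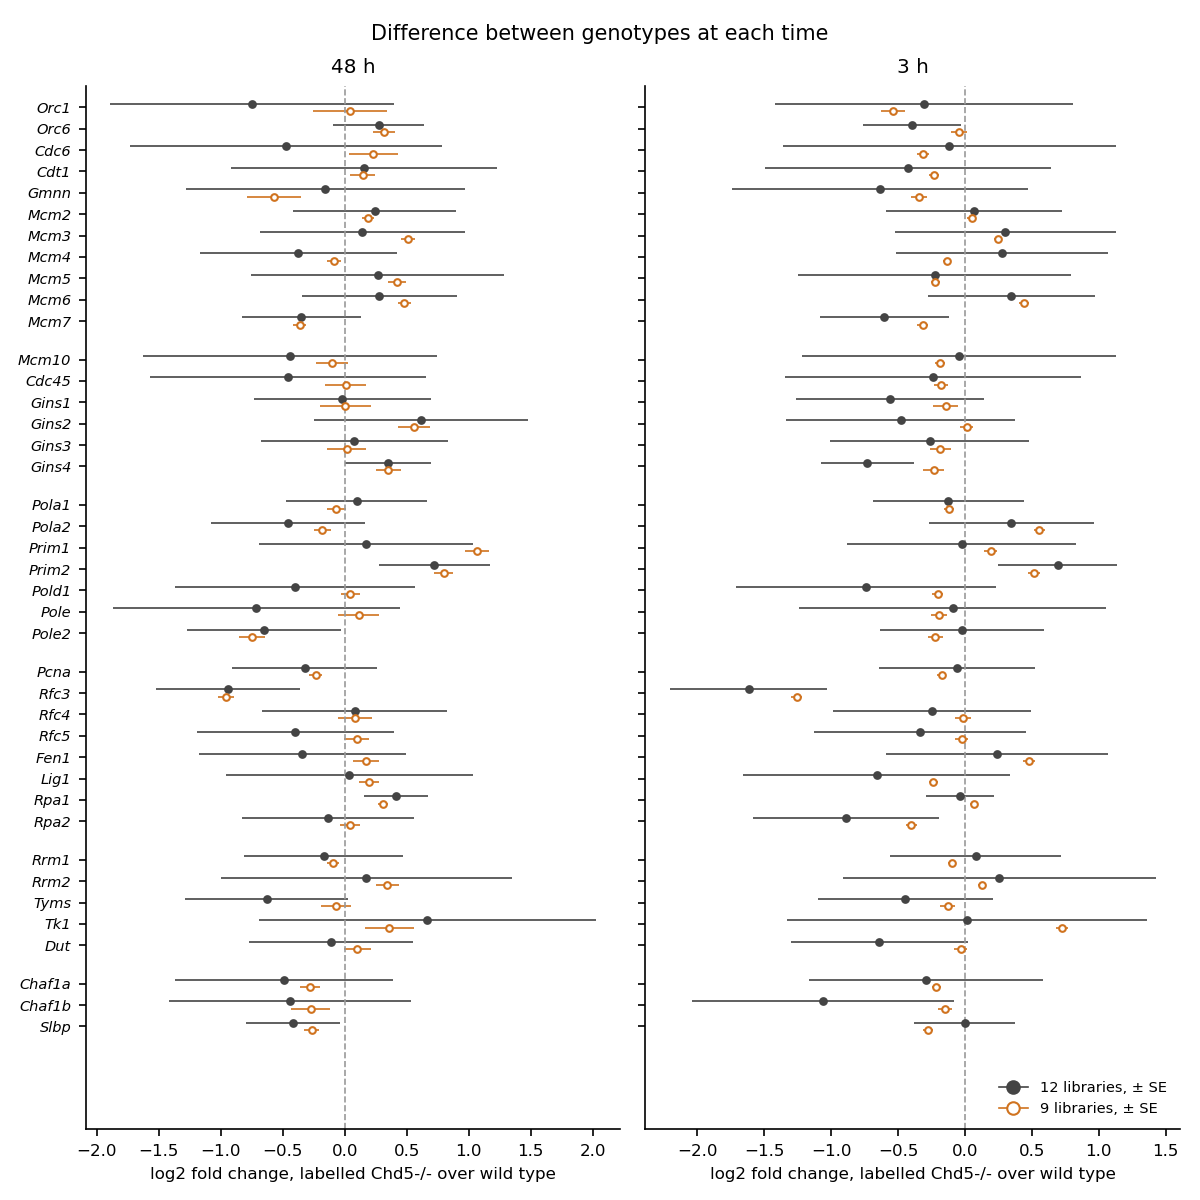
Log2 fold change of the libraries labelled Chd5-/- over wild type for each of the 40 genes at 48 h (left) and 3 h (right), with bars of ± 1 standard error. Filled grey points use 12 libraries and open orange points 9 libraries. Rfc3 lies left of 0 and Prim2 right of 0 at both times in both fits.

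Rfc3, a clamp loader subunit, had the largest difference between genotypes at 3 h, which did not pass with 12 libraries. Its values under the label Chd5-/- were 66.2, 63.3 and 64.8 CPM, against 286, 158 and 152 CPM in wild type (log2 fold change -1.62 ± 0.59, adjusted p = 0.14). The 48 h values were 17.9, 65.1 and 20 CPM for the label Chd5-/-, against 36.9, 123 and 37.5 CPM in wild type (-0.94 ± 0.58, adjusted p = 0.69). The groups did not overlap at 3 h, and at 48 h each library labelled Chd5-/- stood at about 0.5 of the wild type library of its number. Over the 9 libraries Rfc3 was lower at both times (-1.26 ± 0.04 at 3 h, adjusted p = 2.8e-11, and -0.96 ± 0.06 at 48 h, adjusted p = 8e-08). These p-values rest on the small spread between the libraries kept. The deposited estimates place 1.26% of Rfc3 reads on its coding transcripts and 55.2% on the most used of its transcript models, so the values are mostly those of non-coding transcript models.

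Both primase genes were higher in the libraries labelled Chd5-/- in the 9 libraries. Prim2 had 20.6, 49.2 and 20.1 CPM in those libraries at 48 h, against 12.5, 30.9 and 11.1 CPM in wild type. The 3 h values were 80.3, 76.8 and 78.1 CPM in the libraries labelled Chd5-/-, against 35.5, 54.3 and 55.7 CPM in wild type. The groups did not overlap at 3 h, and each 48 h library lay above the wild type library of its number (log2 fold change 0.72 ± 0.45, adjusted p = 0.69 at 48 h; 0.69 ± 0.44, adjusted p = 0.37 at 3 h). Prim1, the catalytic primase subunit, had 13.8, 63.7 and 13.6 CPM in the libraries labelled Chd5-/- at 48 h, against 6.53, 67.8 and 6.64 CPM in wild type. Replicates 1 and 3 were at about 2 times wild type and replicate 2 was not higher, and with 12 libraries the difference did not pass (0.17 ± 0.86, adjusted p = 1). In the 9-library fit the differences at 48 h were 1.07 ± 0.10 for Prim1 (adjusted p = 1.4e-06) and 0.80 ± 0.08 for Prim2 (adjusted p = 2.4e-06). Over time Prim1 had a log2 fold change of -2.21 in the libraries labelled Chd5-/- and -3.09 in wild type over the 9 libraries.

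**Figure D5:**
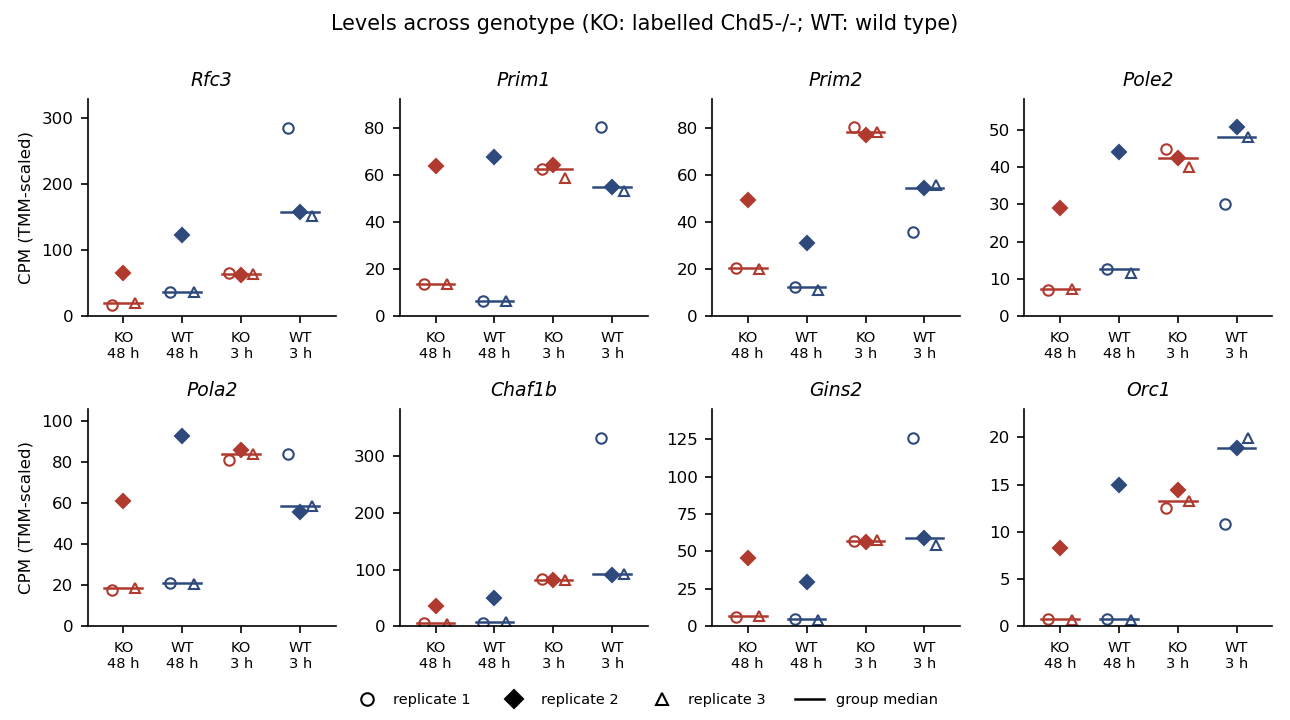
CPM of 8 genes in every library, with groups from left to right labelled Chd5-/- (KO) at 48 h, wild type (WT) at 48 h, KO at 3 h and WT at 3 h; bars are group medians and axes start at 0. Rfc3 is lower and Prim2 higher in KO at 3 h without overlap, and in Chaf1b and Gins2 the WT group at 3 h is spread by the open circle of replicate 1.

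The other differences that were largest in their role rested on single libraries. Orc1 had the largest licensing difference at 48 h (-0.75 ± 1.15, adjusted p = 0.98), and replicates 1 and 3 were nearly equal between genotypes. Tk1 had the largest of the nucleotide genes at 48 h (0.67 ± 1.36, adjusted p = 1), from replicate 2. At 3 h its difference was 0.01 ± 1.35 with wild type replicate 1 and 0.72 ± 0.05 without the 3 libraries (adjusted p = 3.4e-08). Chaf1b (-1.06 ± 0.98, adjusted p = 0.54), Pold1 (-0.74 ± 0.97, adjusted p = 0.67) and Gins4 (-0.73 ± 0.35, adjusted p = 0.23) had the largest of their roles at 3 h, and without the 3 libraries they came to -0.15, -0.20 and -0.23.

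Over the 9 libraries 17 genes differed between genotypes at 48 h and 30 at 3 h. At 48 h the label Chd5-/- went with 11 of 40 higher and 6 lower, where 25.6% and 21.6% of all genes were. At 3 h 8 were higher and 22 lower, where 27.2% and 25.3% were, so the members called lower at 3 h were a larger share than in the background and the other counts were near or below it. Pole2, a subunit of polymerase epsilon, was lower at 48 h in this fit, with 7.12 and 7.19 CPM in replicates 1 and 3, against 12.7 and 11.6 CPM in wild type (-0.75 ± 0.11, adjusted p = 7.7e-05). Its replicate 2 values, 29.1 CPM in the library labelled Chd5-/- and 44.0 CPM in wild type, lay the same way, and with 12 libraries the difference did not pass (-0.65 ± 0.62, adjusted p = 0.89). Pola2, the regulatory subunit of polymerase alpha, was higher at 3 h over the 9 libraries, with 81.3, 86.2 and 84.2 CPM, against 83.9, 55.8 and 58.4 CPM in wild type (0.56 ± 0.04, adjusted p = 1.7e-07), and wild type replicate 1 lay among the libraries labelled Chd5-/-. With 12 libraries that difference did not pass (0.35 ± 0.62, adjusted p = 0.76). For the interaction, 13 were called higher and 3 lower, where 19.3% and 21.1% of all genes were, and the differences in fall reached at most 1 log2 step. In this fit the fall was shallower in the libraries labelled Chd5-/- for 31 of 40 genes. The median interaction changed sign when single 48 h libraries were left out. Over the 9 libraries the genotypes were between 0.5 and 1 log2 step apart in 8 of 40. Gins2 (0.55), Gins4 (0.58) and Pola2 (-0.74) were among these. With 12 libraries their interaction values were 1.09 ± 1.22, 1.08 ± 0.49 and -0.81 ± 0.87, with edgeR adjusted p of 0.75, 0.5 and 0.75.

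Cdkn1a, which encodes p21, an inhibitor of cyclin-dependent kinases that act before S phase, was the gene of the regulator list that passed between genotypes with 12 libraries. It had 106, 153 and 114 CPM in the libraries labelled Chd5-/- at 48 h, against 8.92, 15.2 and 9.71 CPM in wild type (log2 fold change 3.46 ± 0.29, adjusted p = 0.00016). Its 3 h levels were 709, 687 and 691 CPM, against 61.8, 42.4 and 43.3 CPM (3.82 ± 0.29, adjusted p = 6.4e-05). The groups did not overlap at either time. Of the 46 other replication genes, only Orc2 passed between genotypes with 12 libraries. It was higher under the label Chd5-/- at 3 h, where 3.24% of all genes were called higher. Its levels were 166, 167 and 164 CPM, against 68.3, 97.0 and 95.3 CPM in wild type (0.93 ± 0.21, edgeR adjusted p = 0.027).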

How the data were processed

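RNA-seq of 12 libraries in 4 groups of 3 was read from the authors' tables. The submitters' processing notes name Salmon, whose version is not given in the sources used here. Per the file headers, the deposited tables give estimated counts (expected counts, NumReads), TPM and effective length per transcript. Of 140658 transcripts, 140137 matched GENCODE M21 (GRCm38), and the other 521 held 0.135% to 0.181% of a library's reads. Estimated counts were summed per gene and rounded, over libraries of 14.11 to 18.71 M reads; deposited TPM values served only for levels between genes, and deposited effective lengths for an alternative length offset. The number of reads limits the precision of low genes, and counting error is not the only source of spread.

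Genes were filtered with filterByExpr (minimum count 10, total 15) and tested with edgeR 4.0.16 in R 4.3.3 (TMM scaling, quasi-likelihood test, 4 groups, no block), with p-values Benjamini-Hochberg adjusted over all 16043 genes and a threshold of 0.05. The fit without 3 libraries tested 16489 genes. DESeq2 1.42.0, limma 3.58.1, other scalings and filters, a replicate block and leaving out libraries were alternatives. The test was checked on simulated data. Same-numbered libraries deviated together at 48 h (r = 0.559, 0.736 and 0.562) and less so at 3 h (0.149, 0.0752 and 0.0535), so the numbers met the rule for pairing at 48 h. Libraries 1 and 3 correlated across numbers as much (0.584 and 0.596), so the correlations set only replicate 2 apart and do not tell number 1 from 3. By rule, full values were given in each role for the 2 genes with the highest mean TPM and those with the largest absolute fold change over time or between genotypes, and for genes of the other lists that passed. Cdc6, Mcm10, Cdc45, Prim1, Prim2, Pola2, Pole, Pole2, Rpa1, Orc6, Orc3 and Rrm2b were added after their values were seen. Apart from Cdkn1a, the genes named from the regulator and cell type marker lists were also picked outside this rule. Members and lists were chosen with earlier results of these data known. Promoters came from RefSeq (GRCm38.p6), with 33 of 40 genes matched.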

Additional observations from a re-analysis of the deposited data

How the results depend on the processing

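The falls kept their direction for the median of every role under all alternatives, and their size and count of calls turned on the 48 h replicates 2. For the libraries labelled Chd5-/-, the 8 genes called lower became 5 with the replicate block, 19 with limma-voom (9.72% of all genes lower), 13 with DESeq2 (11.7%), 39 without the 48 h replicates 2, 40 without the 3 libraries and 1 to 36 over single libraries left out. For wild type, the 11 became 0 with only the groups compared, where 0 of all 14938 genes were called, 1 with the replicate block, 22 with limma-voom (8.78% of all genes lower), 17 with DESeq2 (14.2%), 40 without the 48 h replicates 2 and without the 3 libraries, and 1 to 40 over single libraries left out. DESeq2 gave an adjusted p for 21 of the 40 genes, so its 13 and 17 are out of 21, beside shares over all 16043 genes. Leaving out 1 library kept 2 or more in each group. Numbers met the rule for pairing at 48 h alone, where the block changed no call between genotypes.

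Median log2 fold changes in the libraries labelled Chd5-/-, without both 48 h replicates 2, without the 3 libraries, and lowest and highest over single libraries left out, were -3.325, -3.355, -3.331 and -1.484 for licensing, -3.015, -3.046, -3.021 and -1.24 for helicase activation, and -2.57, -2.599, -2.576 and -1.157 for polymerases. They were -2.829, -2.86, -2.835 and -1.219 for the clamp, -3.195, -3.225, -3.201 and -1.611 for nucleotide supply, and -3.423, -3.452, -3.429 and -1.736 for chromatin assembly. In wild type they were -3.408, -3.514, -3.409 and -1.404 for licensing, -3.788, -3.393, -3.791 and -1.214 for helicase activation, and -2.88, -2.927, -2.882 and -0.757 for polymerases. They were -3.159, -3.061, -3.161 and -1.518 for the clamp, and -3.407, -3.382, -3.409 and -1.265 for chromatin assembly. Nucleotide supply had -3.906 without both replicates 2, and -3.908 to -1.824 over single libraries left out. Helicase activation in wild type was -2.858 with the replicate block and -2.783 with limma-voom.

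Between genotypes, 8 genes were higher and 22 lower at 3 h without the 3 libraries, 11 higher and 6 lower at 48 h, and 13 and 3 for the interaction. Without both 48 h replicates 2, 1 gene was higher and 1 lower at 3 h, and 1 higher at 48 h. At 3 h, 1 was lower with only the groups compared (3.09% of all genes lower), with the replicate block (4.15%) and with DESeq2 (7.44%). Single libraries left out gave 0 throughout. Directions turned for Orc1 at 48 h (0.041 without the 3 libraries, 0.022 without both replicates 2, -2.855 to 2.13 over single libraries left out) and for Tk1 at 3 h (-0.070 with RLE size factors, -0.018 with a 1 CPM filter, -0.197 with a length offset, -0.022 with only the groups compared, -0.234 to 0.725 over single libraries left out). Over single libraries left out, 48 h differences ran between -2.668 and 3.678 for Tk1, -0.981 and 2.204 for Prim1 and -1.67 and 0.254 for Pole2, and interactions between -0.488 and 2.577 for Gins2 and -1.669 and 0.297 for Pola2. The cause of these shifts was not tested.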
